A study of Mus musculus with 6 samples.

Results

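The genes described here are the matrix proteases and their inhibitors, namely every gene in the deposited table whose symbol is an *Mmp*, *Adamts* or *Adamtsl* symbol followed by a number, or *Timp1* to *Timp4*. This rule took 48 of the 17854 genes in the table: 21 matrix metalloproteinases (MMPs), 18 ADAMTS proteases, 5 ADAMTS-like genes and 4 tissue inhibitors of metalloproteinases (TIMPs). They were measured by bulk RNA-seq of sorted Tomato+ cells, in 3 libraries of cells that derived from injected MSCs and in 3 libraries of endogenous articular cells. The MSC-derived cells came from repaired articular cartilage of normal *C57BL/6* male mice in which knee osteoarthritis (KOA) had been induced by transecting the anterior cruciate ligament, and into whose joints *Prrx1*-lineage mesenchymal stromal cells (MSCs) of inguinal white adipose tissue (iWAT) had been injected. The endogenous cells came from age- and sex-matched *Prrx1-Cre; R26tdTomato* mice on the same background, so that surgery, injection, origin of the cells and host genotype differ between the groups together and cannot be told apart. In both groups Tomato marks cells in which Cre driven by the *Prrx1* promoter was once active, or their descendants, and the cells were released with type II collagenase and sorted for Tomato. The labels call all 6 libraries chondrocytes.

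MMPs and ADAMTS proteases are zinc-dependent enzymes that cut the proteins of the extracellular matrix. TIMPs bind active sites of such enzymes and block them, each with its own range of targets. Most of the proteases are made as inactive precursors that other proteases must cut, so a transcript level is not an enzyme activity. In articular cartilage the collagenases that cut type II collagen and the aggrecanases that cut the proteoglycan aggrecan are known for their part in the loss of matrix in osteoarthritis, while the same enzymes also serve normal turnover and endochondral growth.

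The expected counts summed to between 22060628 and 24881796 per library, at which 3 counts correspond to between 0.121 and 0.136 CPM (counts scaled to a common library size), a floor that covers counting error only. Endogenous replicate 1 stood apart, in which 3459 genes had no count, whereas replicates 2 and 3 lacked 1338 and 1395 genes, and the edgeR coefficient of variation was 35.3% among endogenous and 6.77% among MSC-derived libraries. All 8 chondrocyte markers of a list (*Col2a1*, *Acan*, *Sox9*, *Matn1*, *Matn3*, *Cnmd*, *Comp* and *Hapln1*) were present in both groups, but their summed level was 430 to 443 TPM (transcript levels corrected for length and scaled to a common sum) in the MSC-derived libraries and 22076 to 23667 TPM in the endogenous ones. In the MSC-derived libraries the label chondrocyte thus stands beside low levels of its own markers and 150046 to 158609 TPM of neutrophil markers, and the group is called MSC-derived here after its source. In the endogenous libraries the label stands beside 29805 to 49219 TPM of osteoblast markers, more than the sum of the chondrocyte markers. Levels per gene are given as FPKM, which corrects for transcript length and library size. Most of the osteoblast sum was *Bglap*, at 11515, 24998 and 22698 FPKM in the endogenous libraries, and the order of the sums rested on this gene. The next osteoblast marker, *Ibsp*, had 2880, 2487 and 2523 FPKM there, compared with 7095, 7147 and 7094 FPKM of *Col2a1*. Levels in neither group are therefore read as those of chondrocytes alone.

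Most of the matrix proteases and all 4 TIMPs were lower in the MSC-derived libraries than in the endogenous libraries, and a small set of MMPs was higher. Of the 48 genes, 42 passed edgeR's expression filter, and edgeR's quasi-likelihood test called 31 of these (73.8%) lower and 6 (14.3%) higher with adjusted p-values up to 0.05. Over all 14289 genes tested the shares were 30.3% lower and 31.3% higher, 61.6% in all, so that the share of lower genes among the matrix protease genes was above that of the table and the share of higher genes below it. The median log2 fold change, positive where MSC-derived cells were higher, was -1.85 over the 42 tested genes and 0.05 over all genes tested. The libraries of the groups were fully separated in 37 of the 42 (88.1%), compared with 72.4% of all genes tested. The higher genes were *Mmp8*, *Mmp9*, *Mmp19*, *Mmp25*, *Mmp27* and *Adamts16*. By family, 10 of 17 tested MMPs were lower and 5 higher, 14 of 16 ADAMTS genes were lower and 1 higher, and 3 of 5 ADAMTS-like genes and 4 of 4 TIMPs were lower. These counts say nothing of genes that were filtered out for low values, and in bulk libraries fewer cells of a type and less RNA per cell cannot be told apart.

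**Figure D1:**
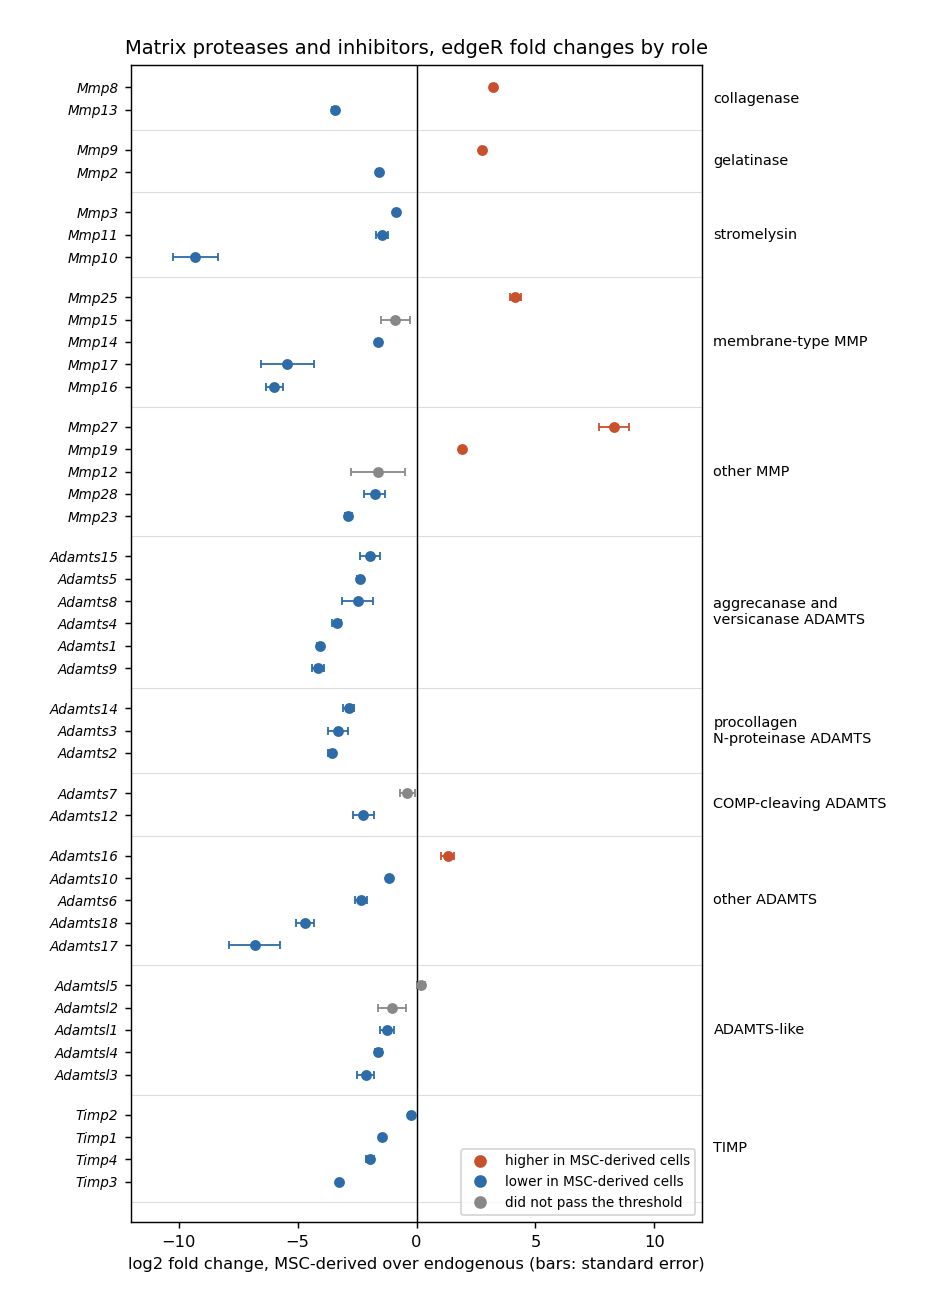
Log2 fold changes of the 42 tested genes (x axis, MSC-derived over endogenous cells, edgeR) with their standard errors as bars, grouped by role. Orange points are the 6 genes higher in MSC-derived cells, blue points the 31 lower ones, and grey points are the 5 that did not pass the threshold; the positions of *Mmp10*, *Mmp17*, *Adamts17* and *Mmp27* rest on a group with few or no counts.

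The collagenases, which make the initial cut in fibrillar collagen, went in opposite directions. *Mmp13*, collagenase-3, had 32.0, 29.3 and 30.4 FPKM in the MSC-derived libraries and 359, 265 and 280 FPKM in the endogenous libraries. *Mmp8*, the neutrophil collagenase, had 271, 269 and 275 FPKM in the MSC-derived libraries and 27.9, 23.1 and 29.5 FPKM in the endogenous ones. The groups were apart for both genes, and the collagenase with the higher level was *Mmp8* in every MSC-derived library and *Mmp13* in every endogenous library. The log2 fold change was -3.42 for *Mmp13*, with a standard error (SE) of 0.13 and an adjusted p of 4.89e-07, and 3.22 for *Mmp8* (SE 0.10, adjusted p = 2.54e-07). The rodent collagenase-1 genes were at or near 0: *Mmp1a* had 1 count and *Mmp1b* 2 counts, all in endogenous replicate 3, and since they are close paralogs RSEM may have divided reads between them.

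Many of these MMP genes are neighbours. In the RefSeq annotation 10 MMP genes follow each other on mouse chromosome 9 with 0 other protein-coding genes between them, in the order *Mmp13*, *Mmp12*, *Mmp1b*, *Mmp3*, *Mmp1a*, *Mmp10*, *Mmp8*, *Mmp27*, *Mmp20* and *Mmp7*, of which the last pair was not analysed here. Among the 6 tested genes of this cluster, the 3 lower ones (*Mmp13*, *Mmp3* and *Mmp10*) and the 2 higher ones (*Mmp8* and *Mmp27*) each lay on their own side of the row, and *Mmp12* did not pass the threshold. The stretches of 100 bases before the annotated starts of the 5 called genes are shown because they differ in a short motif that is well known from MMP promoters. They are from RefSeq on GRCm38.p6, plus strand, written 5′ to 3′, and capitals mark the AP-1 site, the sequence bound by Fos and Jun proteins (TGAGTCA or its reverse complement TGACTCA):
Mmp13 (chr9:7272414-7272513): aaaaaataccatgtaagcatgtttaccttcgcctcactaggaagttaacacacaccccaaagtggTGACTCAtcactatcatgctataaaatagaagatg
Mmp3 (chr9:7445722-7445821): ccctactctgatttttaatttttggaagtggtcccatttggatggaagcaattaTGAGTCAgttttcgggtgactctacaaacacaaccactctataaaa
Mmp10 (chr9:7502242-7502341): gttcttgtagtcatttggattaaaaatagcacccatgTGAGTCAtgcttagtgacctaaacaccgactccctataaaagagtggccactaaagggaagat
Mmp8 (chr9:7558329-7558428): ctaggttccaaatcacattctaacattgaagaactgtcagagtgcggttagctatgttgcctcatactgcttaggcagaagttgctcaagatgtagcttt
Mmp27 (chr9:7571296-7571395): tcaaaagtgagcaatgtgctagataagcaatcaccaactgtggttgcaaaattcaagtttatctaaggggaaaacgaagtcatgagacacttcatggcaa

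The capitals appear in the stretches of *Mmp13*, *Mmp3* and *Mmp10*, where the site starts 35, 46 and 63 bases before the start of the gene, and not in those of *Mmp8* and *Mmp27*. In the 250 bases before the start, RefSeq windows were matched for 33 of the 48 genes, and 5 of the 33 (15.2%) held an AP-1 site on either strand, compared with 1197 of 27025 windows of all genes (4.43%). The other matches were *Mmp1a* and *Mmp1b*, at 73 and 93 bases, the rodent collagenase-1 genes that were not tested. All 5 matches thus lay in the chromosome 9 cluster, whose gene *Mmp12* held none. No lower gene outside the cluster with a matched window, such as *Mmp14*, *Adamts1* or *Timp3*, held the site. The higher genes *Mmp9*, *Mmp19* and *Adamts16* had no matched window. The RUNX site, TGTGGTT or AACCACA, was found in 2 of the 33 windows (*Mmp13* and *Mmp27*, 6.06%) and in 4.46% of all windows. The TATA box letters TATAAA were found on the gene's strand within 100 bases of the start in 8 of 33 windows (24.2%), those of *Mmp13*, *Mmp3*, *Mmp10*, *Mmp1a*, *Mmp1b*, *Mmp21*, *Adamts1* and *Adamtsl2*, and in 4.14% of all windows. None of the matches of different motifs in these windows overlapped. A match of letters is a description of the sequence and not evidence of binding.

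**Figure D2:**
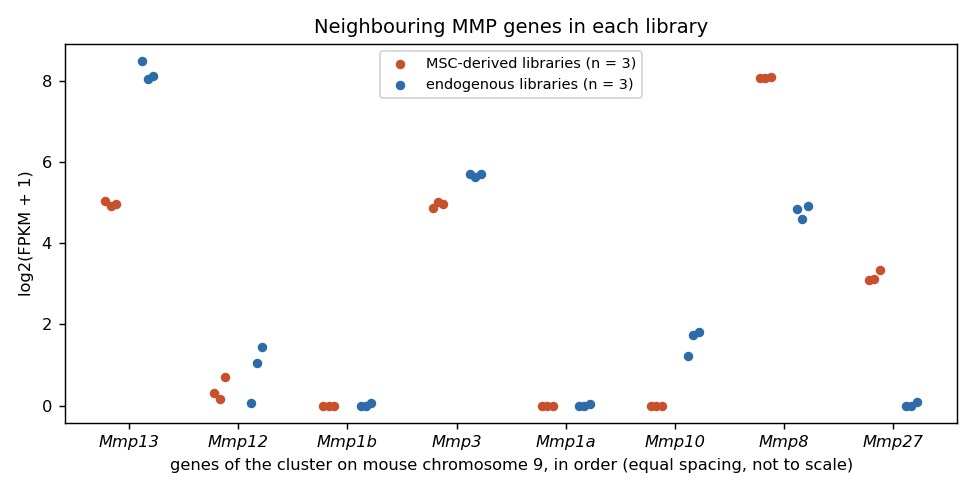
Level of 8 neighbouring MMP genes on chromosome 9 in each library (y axis, log2(FPKM + 1); x axis, gene order, not to scale). Each point is 1 library, and the MSC-derived points lie below the endogenous ones for *Mmp13*, *Mmp3* and *Mmp10* and above them for *Mmp8* and *Mmp27*.

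The gelatinases, which degrade denatured collagen and basement membrane collagen, went in opposite directions as well. *Mmp2*, the gelatinase of stromal cells, had 94.7, 95.1 and 99.0 FPKM in MSC-derived and 237, 290 and 267 FPKM in endogenous libraries. *Mmp9*, a gelatinase stored in neutrophil granules and made by macrophages and osteoclasts, had 170, 161 and 166 FPKM in MSC-derived and 21.4, 21.4 and 24.1 FPKM in endogenous libraries. In each group the libraries lay close to each other compared with the distance between groups. *Mmp2* was lower by edgeR's quasi-likelihood test (log2 fold change -1.58, SE 0.09, adjusted p = 3.96e-06) and *Mmp9* higher (2.77, SE 0.08, adjusted p = 1.51e-07).

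All 3 genes named stromelysins were lower in the MSC-derived cells. *Mmp3*, stromelysin-1, which cuts proteoglycans and activates other MMP precursors, had 28.4, 31.6 and 30.4 FPKM in MSC-derived and 51.4, 48.5 and 51.5 FPKM in endogenous libraries. Its log2 fold change of -0.86 (SE 0.08, adjusted p = 7.78e-05) was the smallest in size of the called MMPs. *Mmp11*, stromelysin-3, had 3.28, 3.92 and 2.49 FPKM in MSC-derived and 10.3, 7.22 and 6.85 FPKM in endogenous libraries (log2 fold change -1.45, SE 0.26, adjusted p = 0.00185). *Mmp10*, stromelysin-2, had 0 counts in all MSC-derived libraries and 49, 86 and 96 counts in the endogenous ones, and was at least 24.7-fold lower when set against a floor of 3 counts per library.

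The membrane-type MMPs act at the cell surface. *Mmp14*, which activates the precursor of *Mmp2*, had 32.6, 29.4 and 32.9 FPKM in MSC-derived and 100, 83.6 and 85.0 FPKM in endogenous libraries, a log2 fold change of -1.62 (SE 0.09, adjusted p = 4.44e-06). *Mmp16* had 0.31, 0.13 and 0.20 FPKM in MSC-derived and 15.9, 10.2 and 10.4 FPKM in endogenous libraries. The difference in *Mmp16* (log2 fold change -5.97, SE 0.36, adjusted p = 5.27e-06) rested on 9 to 24 counts per MSC-derived library. *Mmp17*, a glycolipid-anchored enzyme, had 0, 9 and 0 counts in MSC-derived and 168, 118 and 96 counts in endogenous libraries (log2 fold change -5.43, SE 1.10, adjusted p = 0.00381). Its size rested on MSC-derived replicate 2, without which the MSC-derived libraries were at 0 and the fitted value was -10.02, which is no bound. Its pooled counts gave a ratio of 41.2 for endogenous over MSC-derived cells, with an exact 95% counting interval of 21.5 to 90.8. This interval treats reads as independent and leaves out the spread between libraries, so it is too narrow. *Mmp25*, leukolysin, the other glycolipid-anchored member and an enzyme of leukocytes, was the one gene of this class that was higher. It had 28.1, 30.0 and 30.2 FPKM in MSC-derived and 1.02, 1.50 and 2.03 FPKM in endogenous libraries, a log2 fold change of 4.16 (SE 0.24, adjusted p = 4.58e-06). *Mmp15* was not called (log2 fold change -0.90, SE 0.61, adjusted p = 0.232), with values of 0.33, 0.11 and 0.55 FPKM that overlapped the 0.73, 0.56 and 0.42 FPKM of the endogenous libraries.

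The remaining MMPs held both directions. *Mmp19*, made by many stromal and myeloid cells, had 31.5, 30.3 and 32.7 FPKM in MSC-derived and 8.67, 7.02 and 7.54 FPKM in endogenous libraries (log2 fold change 1.91, SE 0.10, adjusted p = 3.33e-06). *Mmp27* had 361, 350 and 390 counts in MSC-derived and 0, 0 and 3 counts in endogenous libraries. The ratio of its pooled counts per library size was 378, with an exact 95% counting interval of 129 to 1837 that leaves out the spread between libraries. The size of this difference is thus uncertain, while its direction was the same in every pair of libraries. *Mmp23*, a membrane-bound MMP without the usual haemopexin domain, had 5.51, 4.78 and 4.28 FPKM in MSC-derived and 29.3, 36.0 and 32.4 FPKM in endogenous libraries (log2 fold change -2.87, SE 0.15, adjusted p = 2.89e-06). *Mmp28*, epilysin, was low in both groups, at 0.33, 0.26 and 0.52 FPKM and 0.94, 1.30 and 1.78 FPKM, and was called lower (log2 fold change -1.76, SE 0.44, adjusted p = 0.00976), a call that was lost without MSC-derived replicate 2 (-1.57, adjusted p = 0.0503). *Mmp12*, macrophage elastase, is a gene in which endogenous replicate 1 decides the call. It had 10, 4 and 25 counts in MSC-derived and 2, 41 and 75 counts in endogenous libraries and was not called (log2 fold change -1.61, SE 1.14, adjusted p = 0.254), whereas without endogenous replicate 1 the log2 fold change was -2.24 (adjusted p = 8.87e-04).

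**Figure D3:**
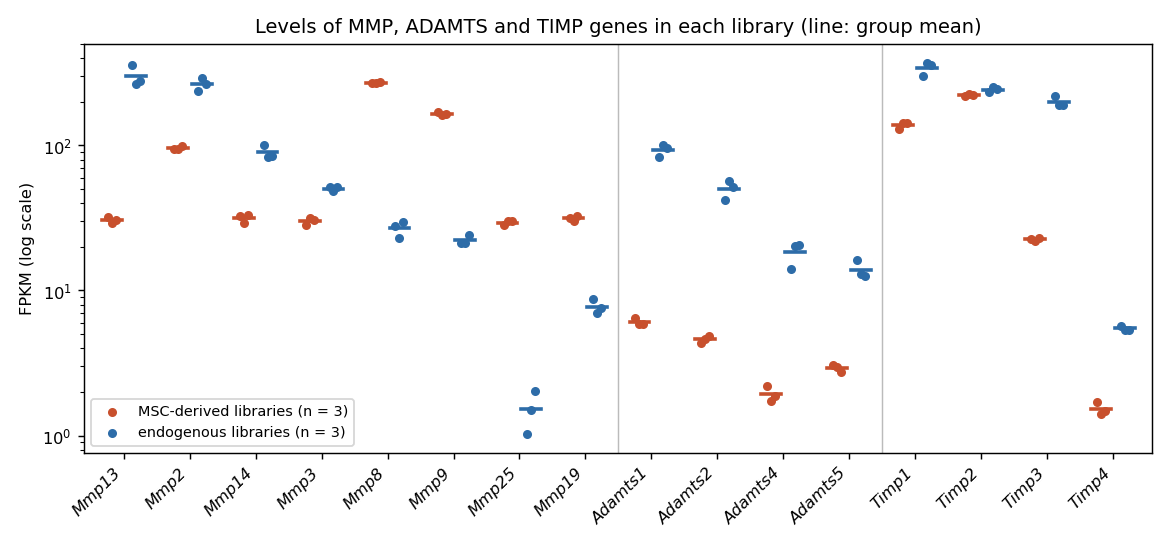
Level of 16 genes in each library (y axis, FPKM on a log scale), with MMPs, ADAMTS genes and TIMPs separated by grey lines. Points are libraries and short lines group means; *Mmp8*, *Mmp9*, *Mmp25* and *Mmp19* lie higher in the MSC-derived libraries, the other genes lower, and *Timp2* nearly level.

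The higher MMPs include enzymes that are known from myeloid cells, and markers of such cells moved with them. All 10 neutrophil markers of the list were higher in the MSC-derived cells, with log2 fold changes from 2.29 for *Mpo* to 4.63 for *S100a8*, and none of them was at 0 in either group. Their summed level was 150046 to 158609 TPM in the MSC-derived and 8320 to 11785 TPM in the endogenous libraries. All 10 macrophage markers were higher as well, with log2 fold changes from 2.86 for *Cd14* to 9.53 for *C1qa* and a summed level of 14300 to 14633 TPM compared with 108 to 179 TPM. Of 6 endothelial markers 4 were higher, at 27.5 to 31.2 compared with 9.74 to 15.4 TPM in sum. Of 7 osteoclast markers 4 were tested, of which *Acp5* and *Atp6v0d2* were higher, whereas *Ctsk* had a log2 fold change of -0.04 (adjusted p = 0.805) and *Calcr* was at 0 in all MSC-derived libraries. The log2 fold changes of *Mmp8*, *Mmp25* and *Mmp9* lay within the neutrophil range, and that of *Mmp27* within the macrophage range only. Those of *Mmp8* and *Mmp25* lay within the macrophage range as well, but only because of *Cd14*. The next lowest macrophage marker was *Csf1r* at 5.88. Those of *Mmp19* and *Adamts16* lay below both ranges. Fibroblast markers went the other way, with 6 of 6 lower and 1937 to 1971 compared with 27221 to 35280 TPM in sum. Most of the endogenous fibroblast sum was *Col1a1*, with a log2 fold change of -5.48. Those of the other fibroblast markers ran from -2.38 for *Pdgfra* to -1.30 for *Thy1*. Also lower were 7 of 7 osteoblast markers, with 234 to 250 compared with 29805 to 49219 TPM, and 3 of 3 hypertrophic chondrocyte markers. Of 5 adipocyte markers 3 were tested, of which *Pparg* was higher and *Adipoq* and *Cidec* lower, with 153 to 166 compared with 266 to 290 TPM in sum over the list. The part of these markers' cells in the levels of the MMP, ADAMTS and TIMP genes was not tested.

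**Figure D4:**
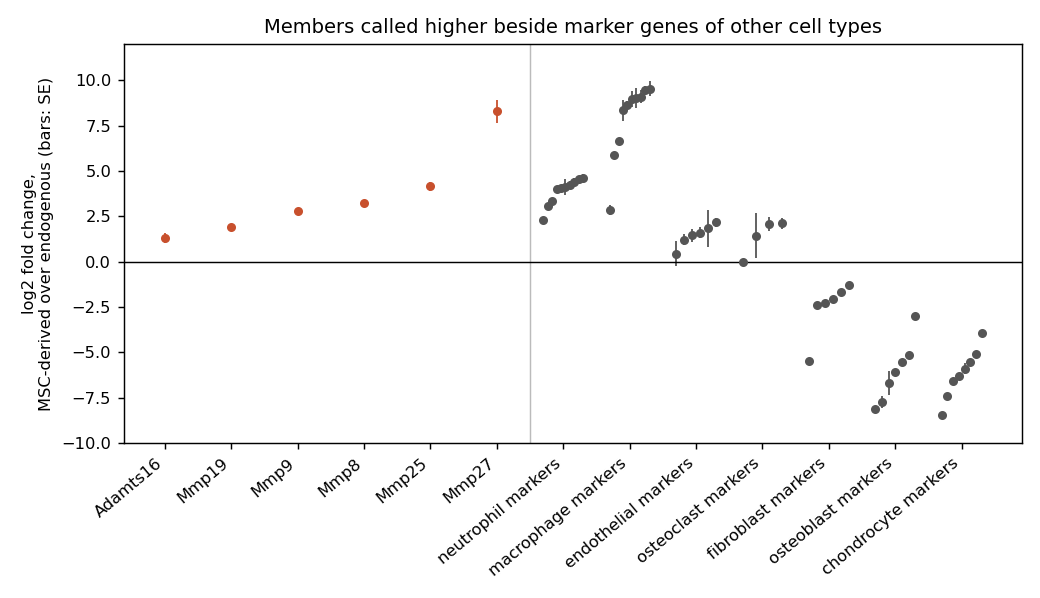
Log2 fold changes (y axis, MSC-derived over endogenous cells, bars: standard error) of the 6 genes called higher, in orange, beside the tested genes of 7 marker lists, in grey. The neutrophil markers span 2.29 to 4.63 and the macrophage markers 2.86 to 9.53, and the fibroblast, osteoblast and chondrocyte markers lie below 0.

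The aggrecanases and versicanases of the ADAMTS family that were in the table were all lower in the MSC-derived cells, 6 of 6 with a median log2 fold change of -2.92. *Adamts5*, the main aggrecanase of mouse cartilage, had 3.08, 2.99 and 2.72 FPKM in MSC-derived and 16.2, 13.0 and 12.5 FPKM in endogenous libraries. *Adamts4*, an aggrecanase induced by inflammatory cytokines, had 2.20, 1.74 and 1.87 FPKM compared with 14.1, 20.4 and 20.7 FPKM. *Adamts1*, which cuts versican and aggrecan, had 6.47, 5.83 and 5.84 FPKM compared with 82.8, 100 and 96.1 FPKM. None of these groups overlapped, and *Adamts1* had the highest level of the ADAMTS genes in every library of both groups. The log2 fold changes were -2.36 for *Adamts5* (SE 0.13, adjusted p = 2.98e-06), -3.36 for *Adamts4* (SE 0.19, adjusted p = 3.81e-06) and -4.06 for *Adamts1* (SE 0.11, adjusted p = 1.30e-07). *Adamts9*, a versicanase, had 0.13, 0.18 and 0.13 FPKM in MSC-derived and 2.99, 2.36 and 2.02 FPKM in endogenous libraries (log2 fold change -4.14, SE 0.27, adjusted p = 7.54e-06). *Adamts15* had 0.49, 0.29 and 0.50 FPKM compared with 2.24, 1.14 and 1.06 FPKM (log2 fold change -1.95, SE 0.41, adjusted p = 0.00439). *Adamts8* had 34, 5 and 12 counts in MSC-derived and 109, 73 and 85 counts in endogenous libraries. Its call and its size depended on single libraries. The log2 fold change was -2.48 (SE 0.66, adjusted p = 0.0136), and it was -3.38 (adjusted p = 0.00709), -2.04 (adjusted p = 0.0328) and -2.31 (adjusted p = 0.0636) without MSC-derived replicate 1, 2 and 3.

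The procollagen N-proteinases, which remove the amino-terminal propeptides of fibrillar procollagens and so belong to the building of matrix, were lower too. *Adamts2* had 4.32, 4.62 and 4.85 FPKM in MSC-derived and 41.8, 56.5 and 51.9 FPKM in endogenous libraries, a log2 fold change of -3.56 (SE 0.14, adjusted p = 5.63e-07). *Adamts3* had 0.29, 0.23 and 0.07 FPKM compared with 1.67, 1.38 and 1.29 FPKM (log2 fold change -3.30, SE 0.43, adjusted p = 3.72e-04). *Adamts14* had 0.55, 0.53 and 0.68 FPKM compared with 4.96, 3.49 and 3.33 FPKM (log2 fold change -2.84, SE 0.23, adjusted p = 2.81e-05). *Adamts2* was thus the procollagen N-proteinase with the highest level in every library of both groups. Of the genes whose enzymes cut cartilage oligomeric matrix protein (COMP), *Adamts12* was lower (log2 fold change -2.23, SE 0.45, adjusted p = 0.00384), with 20 to 38 counts in MSC-derived and 76 to 187 counts in endogenous libraries. *Adamts7* had 0.78, 0.81 and 1.02 FPKM in MSC-derived and 0.94, 0.78 and 0.92 FPKM in endogenous libraries, which overlapped, and it was not called (log2 fold change -0.38, SE 0.31, adjusted p = 0.314).

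Among the other ADAMTS genes, *Adamts16* was the single gene of the family that was higher in MSC-derived cells. It had 2.90, 3.26 and 2.91 FPKM in MSC-derived and 1.41, 1.02 and 0.74 FPKM in endogenous libraries, without overlap (log2 fold change 1.32, SE 0.27, adjusted p = 0.00371). *Adamts10*, which binds fibrillin microfibrils, had 6.19, 5.79 and 5.77 FPKM in MSC-derived and 12.7, 12.2 and 12.4 FPKM in endogenous libraries. Its log2 fold change of -1.15 (SE 0.09, adjusted p = 2.68e-05) was the smallest in size of the lower ADAMTS genes. *Adamts6* had 0.31, 0.36 and 0.25 FPKM compared with 1.67, 1.16 and 1.60 FPKM (log2 fold change -2.34, SE 0.26, adjusted p = 1.72e-04). *Adamts18* had 0.09, 0.20 and 0.07 FPKM compared with 3.10, 2.87 and 2.86 FPKM (log2 fold change -4.68, SE 0.37, adjusted p = 2.22e-05). Both genes were separated without overlap. *Adamts17* had 0, 0 and 1 count in MSC-derived and 85, 25 and 38 counts in endogenous libraries (adjusted p = 0.00103 in edgeR's quasi-likelihood test). Its pooled counts gave a ratio of 144 for endogenous over MSC-derived cells, with an exact 95% counting interval of 25.4 to 5710 that leaves out the spread between libraries.

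The ADAMTS-like proteins resemble ADAMTS proteins but lack the catalytic domain, and several of them bind fibrillin microfibrils. *Adamtsl4*, the member with the highest level in the endogenous cells, had 4.15, 4.61 and 4.05 FPKM in MSC-derived and 9.71, 12.8 and 13.0 FPKM in endogenous libraries (log2 fold change -1.60, SE 0.15, adjusted p = 5.58e-05). *Adamtsl1* had 0.40, 0.38 and 0.36 FPKM compared with 0.94, 0.99 and 0.67 FPKM (log2 fold change -1.24, SE 0.28, adjusted p = 0.00594). *Adamtsl3* had 0.18, 0.16 and 0.22 FPKM compared with 0.59, 0.70 and 0.99 FPKM (log2 fold change -2.14, SE 0.37, adjusted p = 0.00169). These 3 genes were lower without overlap, and the other two did not pass the threshold. *Adamtsl5* had 5.57, 5.52 and 6.35 FPKM in MSC-derived and 4.05, 4.89 and 5.22 FPKM in endogenous libraries, a log2 fold change of 0.18 by counts (SE 0.16, adjusted p = 0.354). *Adamtsl2* had 0.79, 0.41 and 0.44 FPKM compared with 0.51, 0.89 and 1.71 FPKM (log2 fold change -1.03, SE 0.58, adjusted p = 0.160). For *Adamtsl2* as for *Mmp12* endogenous replicate 1 was the lowest endogenous library, and without it the log2 fold change was -1.46 (adjusted p = 6.15e-04).

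All 4 TIMPs were lower in the MSC-derived cells, by very unequal amounts. *Timp3*, which binds to the matrix and also inhibits the aggrecanases, had 22.8, 21.8 and 22.9 FPKM in MSC-derived and 221, 189 and 189 FPKM in endogenous libraries. *Timp1*, a secreted inhibitor that acts weakly on membrane-type MMPs, had 129, 142 and 142 FPKM compared with 303, 373 and 358 FPKM. *Timp2*, which both inhibits MMPs and takes part in the activation of the *Mmp2* precursor by *Mmp14*, had 221, 226 and 224 FPKM compared with 233, 252 and 244 FPKM. The groups of *Timp3* and *Timp1* were far apart, whereas the highest MSC-derived and the lowest endogenous library of *Timp2* were 226 and 233 FPKM. The log2 fold changes were -3.27 for *Timp3* (SE 0.09, adjusted p = 1.23e-07), -1.45 for *Timp1* (SE 0.10, adjusted p = 1.24e-05) and -0.24 for *Timp2* (SE 0.06, adjusted p = 0.0103). *Timp4* had 1.69, 1.40 and 1.48 FPKM compared with 5.70, 5.37 and 5.34 FPKM (log2 fold change -1.96, SE 0.18, adjusted p = 4.63e-05). The call for *Timp2* was lost with normalization by library size alone (log2 fold change -0.12, adjusted p = 0.0982), with limma on FPKM (adjusted p from 0.123 to 0.132 over 3 settings) and without MSC-derived replicate 1 (-0.22, adjusted p = 0.0555).

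Summed over each family in TPM, which compares levels per transcript length within a library, the MSC-derived cells held less of every family. The MMP genes summed to 872, 856 and 878 TPM in MSC-derived and 1717, 1397 and 1403 TPM in endogenous libraries. The ADAMTS genes summed to 35.0, 33.6 and 33.3 TPM compared with 376, 380 and 365 TPM, and the TIMP genes to 463, 483 and 481 TPM compared with 1512, 1433 and 1390 TPM. The ADAMTS-like genes summed to 13.8 ± 0.188 and 34.8 ± 3.20 TPM (SD, n = 3). The groups did not overlap for MMPs, ADAMTS genes or TIMPs, and the means were 1.73-fold apart for MMPs, 11.0-fold for ADAMTS genes and 3.04-fold for TIMPs. The size of these differences depended on the unit, because FPKM summed to 808701 to 813572 in the MSC-derived and 504768 to 573603 in the endogenous libraries over all genes. In FPKM, a comparison added after the data were seen, the means were 1.17-fold apart for MMPs (704 ± 10.9 and 824 ± 37.2 FPKM, SD, n = 3), 7.47-fold for ADAMTS genes and 2.06-fold for TIMPs. The MMP sum per TIMP sum was 1.89, 1.77 and 1.83 in MSC-derived and 1.14, 0.975 and 1.01 in endogenous libraries, and the ADAMTS sum per TIMP sum was 0.0757, 0.0694 and 0.0692 compared with 0.248, 0.265 and 0.262. The MSC-derived libraries thus held more MMP but less ADAMTS transcript for each TIMP transcript. The direction of the MMP ratio rested on *Mmp8* and *Mmp9*. They made up 38.6% and 23.5% of the MMP sum in MSC-derived libraries, compared with 3.26% and 2.71% in endogenous ones. The higher MMP ratio is thus not one of MMPs in general, and a ratio of transcripts is not a ratio of active enzyme to inhibitor. These sums and ratios are descriptions, with no test.

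The make-up of each family differed between the groups too. *Mmp8* made up 38.6% ± 0.235 (SD, n = 3) of the MMP transcripts in MSC-derived and 3.26% ± 0.393 (SD, n = 3) in endogenous libraries, and *Mmp9* 23.5% ± 0.542 compared with 2.71% ± 0.262 (SD, n = 3). *Mmp13* made up 4.34% ± 0.162 compared with 36.5% ± 4.35, and *Mmp2* 13.7% ± 0.228 compared with 32.3% ± 4.50 (SD, n = 3). The MMP transcripts of the MSC-derived libraries were thus mostly those of *Mmp8* and *Mmp9*, and those of the endogenous libraries mostly those of *Mmp13* and *Mmp2*. Among ADAMTS genes *Adamts1* led with 45.2% in the endogenous cells, followed by *Adamts2* with 24.3%, while in the MSC-derived cells *Adamts1* had 22.0%, *Adamts10* 21.5% and *Adamts2* 16.7%. *Timp2* made up 58.0% ± 0.854 of the TIMP transcripts in MSC-derived and 30.7% ± 0.107 in endogenous libraries (SD, n = 3), and *Timp3* 5.84% compared with 25.3%. By mean FPKM the order of the 48 genes began with *Mmp8*, *Timp2*, *Mmp9*, *Timp1* and *Mmp2* in MSC-derived cells and with *Timp1*, *Mmp13*, *Mmp2*, *Timp2* and *Timp3* in endogenous cells. In the endogenous cells *Timp1* at 345 ± 36.8 FPKM and *Mmp13* at 301 ± 50.1 FPKM (SD, n = 3) changed places between libraries. *Mmp13* was above *Timp1* in replicate 1 (359 compared with 303 FPKM) and below it in replicates 2 and 3. *Mmp2* at 265 ± 26.4 FPKM lay above *Timp2* at 243 ± 9.65 FPKM (SD, n = 3) in every endogenous library. In replicate 1 their distance was small, with 237 compared with 233 FPKM.

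**Figure D5:**
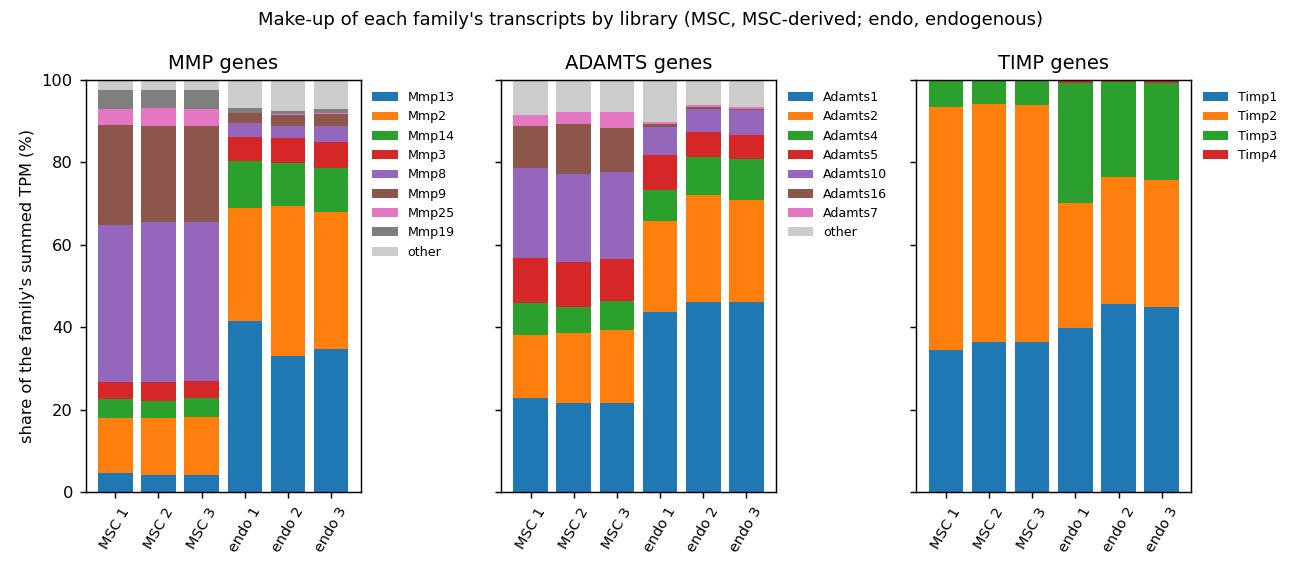
Share of each gene in the summed TPM of its family (y axis, percent) for every library (x axis; MSC, MSC-derived; endo, endogenous). *Mmp8* and *Mmp9* fill most of the MMP bars of the MSC-derived libraries and *Mmp13* and *Mmp2* most of those of the endogenous libraries, and *Timp2* takes the largest part of the TIMP bars in the MSC-derived libraries only.

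Of the 48 genes 6 did not pass the expression filter and were not tested. Besides *Mmp1a* and *Mmp1b*, these were *Mmp21* with at most 4 counts in any library, *Adamts13*, whose enzyme cuts von Willebrand factor, with at most 7, and *Adamts19* with at most 7. *Mmp24*, a membrane-type MMP, had 0, 3 and 1 counts in MSC-derived and 20, 3 and 0 counts in endogenous libraries. At this depth no difference in them could be shown.

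The endogenous replicate that stood apart over the whole table stood apart in few of these genes. Its log2 CPM was at least 1 away from the mean of the other two endogenous libraries for 3 of 42 tested genes (7.14%), namely *Adamts17*, *Adamtsl2* and *Mmp12*, compared with 2865 of the 14289 genes tested (20.1%). The median SD among endogenous libraries was 0.29 on the log2 scale for the matrix protease genes and 0.28 for all genes, and among MSC-derived libraries 0.14 and 0.11. Without this library 6 of the genes were higher and 33 lower, *Mmp12* and *Adamtsl2* being the additional ones.

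Genes that activate the proteases, control them or clear them from the surroundings were taken from a list of 22 genes, of which 21 were in the table. Of these 14 were lower and 4 higher in MSC-derived cells, with a median log2 fold change of -1.74. Over all genes tested 30.3% were lower and 31.3% higher. The largest rise of the list was that of *Hpn*, with 371, 313 and 368 counts in MSC-derived and 0, 22 and 25 counts in endogenous libraries. Its log2 fold change was 4.41 (SE 0.79, adjusted p = 0.00206 in edgeR's quasi-likelihood test). *Cd44* was higher as well (log2 fold change 0.86, SE 0.08). *Furin*, a convertase that activates membrane-type MMPs and ADAMTS precursors, had 25.2, 23.3 and 22.7 FPKM in MSC-derived and 47.6, 59.7 and 52.1 FPKM in endogenous libraries (log2 fold change -1.29, SE 0.10, adjusted p = 2.75e-05). The related convertases *Pcsk5* (log2 fold change -2.23) and *Pcsk6* (-1.71) were lower as well, and *Pcsk7* was slightly higher (0.42, adjusted p = 0.0202). The call of *Pcsk7* was lost without MSC-derived replicate 1 (0.40, adjusted p = 0.0755) or 3 (0.42, adjusted p = 0.0657) and without endogenous replicate 2 (0.30, adjusted p = 0.0659). *Reck*, a membrane-anchored inhibitor of MMPs, had 3.65, 3.49 and 3.62 FPKM compared with 22.2, 23.7 and 22.8 FPKM (log2 fold change -2.79, SE 0.09, adjusted p = 2.56e-07). In the plasminogen system, whose product plasmin activates several MMPs, the urokinase receptor *Plaur* was higher (log2 fold change 1.50, adjusted p = 1.15e-06), tissue plasminogen activator *Plat* was lower (-2.92, adjusted p = 7.62e-06) and urokinase *Plau* was not called (0.18, adjusted p = 0.657). *Serpine2*, an inhibitor of plasminogen activators and thrombin, had 94.7, 92.2 and 96.7 FPKM compared with 1532, 1319 and 1410 FPKM, and with a log2 fold change of -4.03 (adjusted p = 4.92e-08) it had the largest decrease of the list. The syndecan *Sdc4* (log2 fold change -3.31) and the cytokine receptors *Il1r1* (-3.87) and *Osmr* (-3.23), through which interleukin-1 and oncostatin M induce MMPs and aggrecanases in cartilage, were lower. *Lrp1*, the endocytic receptor that takes up several of these enzymes and TIMPs, had a log2 fold change of 0.08 (SE 0.06, adjusted p = 0.284).

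The substrates of these enzymes were lower in MSC-derived cells without exception among the 12 tested of a list of 14, with a median log2 fold change of -2.87. Over all genes tested 30.3% were lower. *Col2a1*, the collagen cut by *Mmp13*, had 95.7, 95.7 and 102 FPKM in MSC-derived and 7095, 7147 and 7094 FPKM in endogenous libraries (log2 fold change -6.30, SE 0.06, adjusted p = 1.76e-08). *Acan*, the aggrecan gene, had 3.03, 2.91 and 3.16 FPKM compared with 131, 128 and 136 FPKM (log2 fold change -5.55, SE 0.08, adjusted p = 2.08e-08). The decrease was smallest for *Eln*, the elastin gene (log2 fold change -0.70, SE 0.25, adjusted p = 0.0445), a call that was lost in most of the other fits. *Col2a1*, *Acan* and *Comp* are also on the list of chondrocyte markers, *Col10a1* on that of hypertrophic chondrocytes and *Col1a1* and *Col3a1* on that of fibroblasts. Their values are thus the same measurements as above.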

How the data were processed

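Tomato+ cells were profiled by bulk RNA-seq in 6 libraries, 3 per group, grouped by their GEO labels, and the study gives 3 mice per group. Per the study's methods, the authors used SOAPnuke to filter reads, HISAT2 and Bowtie2 for alignment and RSEM for quantification. The submitters' processing notes name Bowtie2 2.2.5, RSEM 1.2.12 and mm9. The authors deposited expected counts per gene (not normalized), FPKM (per transcript length and library size), TPM (FPKM rescaled to a fixed sum in each library) and a signal that equals the count rounded up times 1 factor per library, which was not tested. The 24 columns used were mapped to libraries by name, and 8 group averages were not used.

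Expected counts were rounded (20.6% of values changed) and entered edgeR 4.0.16 under R 4.3.3 (TMM, filterByExpr, quasi-likelihood test, no block), with Benjamini-Hochberg adjustment over all 14289 genes tested. Calls needed an adjusted p of at most 0.05. The SE is the log2 fold change divided by the square root of F. On counts simulated for this comparison (14098 genes run) the test recovered 47% of 2-fold and 74% of 4-fold changes, 100% of called changes had the right sign, and 4.72% of calls were false. The simulation gave both groups the same dispersion per gene and changed few genes. The real groups had coefficients of variation of 6.77% and 35.3%, and 61.6% of genes were called. These shares therefore do not give the error rates of the real comparison. A limit set at first on the recovery of 4-fold changes was not met and was then applied to genes of low dispersion, so moderate changes can go uncalled. Alternatives were DESeq2 1.42.0, limma 3.58.1 on log2 FPKM with a pseudocount of 1 or 0.1, other normalizations, filters and thresholds, the replicate number as a block, and each library left out.

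The 48 genes were chosen by symbol, and they and the lists of related genes and markers were chosen with earlier results of these data known. Every gene that passed the filter is named with values, and the other genes of the lists are named as examples. Promoter windows and gene order are from RefSeq (GRCm38.p6), matched by gene identifier, and were not combined with coordinates of the authors' build. Chi-square values per gene between MSC-derived libraries were 3.84 to 4.24, above the level of counting noise, and each library was kept as a replicate. Such values cannot tell separate mice from separate preparations of pooled cells. The chi-square values were 5.3 between endogenous replicates 2 and 3 and 53.3 to 56.6 between these and replicate 1. Depth and counting intervals do not cover the loss of molecules in amplification or the spread between libraries. Figures were drawn with matplotlib 3.10.9.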

Additional observations from a re-analysis of the deposited data

How the results depend on the processing

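With 3 libraries per group, p-values set the difference between groups against a spread estimated from both groups together. The spread was unequal between groups, so this shared value is that of neither group. All 17 other fits gave 6 higher genes and between 30 and 33 lower genes among the 48. Of the 37 called genes 34 kept their direction and their side of the threshold in each of these fits, the exceptions being *Timp2*, *Adamts8* and *Mmp28* (described above). *Mmp12* and *Adamtsl2* passed the threshold when endogenous replicate 1 was left out, and 0 of the 42 tested genes changed direction. An adjusted p of at most 0.001 left 5 higher and 21 lower of the 48 genes, 2134 higher and 2380 lower of all genes, and 3 higher genes of the related lists instead of 7. A fold limit of 1 on the log2 scale left 6 higher and 29 lower of the 48 genes, 2756 higher of all genes and 3 higher genes of the related lists. Replicate numbers do not pair the libraries (correlations of same-numbered deviations of 0.0129, 0.00221 and 0.0178), and a replicate block gave 6 higher and 31 lower of the 48 genes and 4103 higher and 3920 lower of all genes. Among related genes that did not pass the threshold, the log2 fold change of *Lrp1* was -0.01 with upper-quartile factors, but 0.20 and past the threshold with library size alone (adjusted p = 0.0223) and in the 3 limma fits on FPKM (adjusted p = 0.0284 to 0.0379), that of *Plau* ran from -0.07 to 0.35 and that of *Adam19* from -0.15 to 0.37 as libraries were left out, and the cause was not tested. The median over all genes moved from 0.05 to 0.16 with library size alone and to between 0.13 and 0.19 with limma on FPKM, by which fold changes are shifted upward, as for *Timp2*. In CPM in place of TPM the MMP sum per TIMP sum of the MSC-derived cells was 1.92, and the ADAMTS sum per TIMP sum was 0.154 in MSC-derived and 0.586 in endogenous cells, since CPM does not correct for length. Without *Timp1*, the gene with the highest mean FPKM in endogenous and the fourth highest in MSC-derived cells, the MMP ratio was 2.84 in MSC-derived and 1.84 in endogenous cells and the ADAMTS ratio 0.111 and 0.458.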

Other observations

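The ADAM proteases, membrane-anchored relatives of the ADAMTS proteases that release growth factors, cytokines and receptors from the cell surface, were of mixed direction. Of 8 tested genes of the list 3 were higher, 2 lower and 3 not called in the MSC-derived cells, with a median log2 fold change of 0.47, compared with 31.3% higher and 30.3% lower over all genes tested. *Adam8*, known from granulocytes, macrophages and osteoclasts, had 99.3 ± 1.78 FPKM in MSC-derived and 11.5 ± 1.02 FPKM in endogenous libraries (SD, n = 3), a log2 fold change of 2.99 (SE 0.09, adjusted p = 1.84e-07 in edgeR's quasi-likelihood test). *Adam10* (log2 fold change 0.84) and *Adam17* (0.50), the main sheddases of many cell types, were higher by smaller amounts, and the call of *Adam17* was lost without MSC-derived replicate 2 (0.46, adjusted p = 0.0580). *Adam12*, a gene of mesenchymal cells, had 0.117 ± 0.0289 FPKM in MSC-derived and 2.77 ± 0.601 FPKM in endogenous libraries (SD, n = 3), a log2 fold change of -4.68 (SE 0.29, adjusted p = 6.49e-06). *Adam15* was also lower (-0.70, adjusted p = 0.0121), a call that was lost without MSC-derived replicate 2 (-0.68, adjusted p = 0.0505) or 3 (-0.65, adjusted p = 0.0553).

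*Pparg*, which is known from both adipocytes and macrophages, had 127 ± 5.90 FPKM in MSC-derived and 6.51 ± 1.30 FPKM in endogenous libraries (SD, n = 3). *Adipoq*, an adipocyte gene, had 0.927 ± 0.399 and 146 ± 13.0 FPKM (SD, n = 3).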
